A study of Mus musculus with 4 samples.

Results

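The genes of sterol and fatty acid synthesis were followed in mouse cDNT cells labelled Tbx21-KO, against wild-type (WT) cDNT cells. The series title calls the cells double-negative T cells, meaning T cells with neither CD4 nor CD8. The set was fixed by gene symbol and had 36 members among the 24768 genes of the deposited table, and every one of them had a row. It was divided into a sterol arm of 18 enzymes that lead from acetyl-CoA to cholesterol, a fatty acid arm of 10 enzymes of fatty acid synthesis, elongation and desaturation, and 8 genes of control, sterol transfer and efflux. RNA was sequenced in 2 libraries of Tbx21-KO cDNT cells and 2 libraries of WT cDNT cells. The labels give the genotype and the cell type (T cells) only. They do not say what the "c" in cDNT stands for, how the cells were obtained or treated, or whether the libraries of a group came from separate animals or cultures, so the p-values below reflect no more than the scatter among these 4 libraries, and that scatter may be technical. The samples are labelled as knockouts, whereas the design text speaks of a knockdown. T-bet, the product of Tbx21, is a transcription factor of type 1 lymphocytes, and the title of the series is about its part in how these cells regulate immunity.

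Cholesterol is made from acetyl-CoA through mevalonate, isoprenoid diphosphates, squalene and lanosterol. Fatty acids are made from the same acetyl-CoA by carboxylation, repeated condensation on fatty acid synthase, and later elongation and desaturation. Both routes are switched on at the level of transcription by SREBP factors, encoded by Srebf1 and Srebf2: when sterols are scarce, the escort protein SCAP carries the SREBP precursors out of the endoplasmic reticulum for cleavage, and when sterols are plentiful the INSIG proteins hold SCAP back. Dividing T cells raise both routes to build membrane, whereas the LXR receptors, which sense oxysterols, drive the cholesterol exporters.

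Levels are in FPKM as the authors deposited them, fragments divided by gene length and library size, so they can be compared between genes. A log2 fold change is the mean of log2(FPKM + 1) in Tbx21-KO minus that in WT. It understates how far low genes moved. A gene is called higher or lower at an adjusted p under 0.05 (limma, Benjamini-Hochberg over the 11013 genes with a mean of at least 1 FPKM). An exact permutation test of 2 libraries against 2 cannot give a two-sided p below 0.33, so none was used. Tbx21 itself was at 2.29 and 2.41 FPKM in the Tbx21-KO libraries, against 13.2 and 11.7 FPKM in the WT libraries (log2 fold change -2.01, SE 0.08, limma adjusted p = 8.21e-05). The low values of the table imply 23342603 to 24967028 counted reads per library.

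The labelled cell type was checked against its markers, and the 2 groups differed in markers of other cells. Cd3e, a chain of the T cell receptor complex, was at 40.2 and 39.8 FPKM in Tbx21-KO libraries, against 57.2 and 56.1 FPKM in WT libraries. Of 18 tested genes of that complex and its signalling, 12 were lower and 2 higher in Tbx21-KO. All 12 granulocyte markers were higher in Tbx21-KO, with summed levels of 10551 and 10860 FPKM in Tbx21-KO libraries, against 6.48 and 8.76 FPKM in WT libraries, where Csf3r and Cebpe were each at 0 in 1 library. All 6 measured markers of mast cells, basophils and eosinophils were higher too (435 to 441 FPKM summed in Tbx21-KO, 5.94 to 7.51 in WT), as were the 5 tested of 6 measured macrophage and monocyte markers (262 to 283 FPKM summed in Tbx21-KO, 15.5 to 18.4 in WT) and the 3 tested of 7 measured B cell markers (89.3 to 92.4 FPKM summed in Tbx21-KO, 40.7 to 42.3 in WT). Several of these markers, such as Elane, Mpo, Prg2 and Itgam, averaged under 1 FPKM in WT. They were tested only through their Tbx21-KO values, so they could be called only as higher. The coreceptor genes Cd4 and Cd8b1 were low and not called, together 4.91 to 4.95 FPKM in Tbx21-KO and 3.68 to 4.77 FPKM in WT. In RNA of whole samples, fewer cells of a type and less RNA per cell cannot be told apart. The part of these cells in the changes described below was not tested.

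Of the 36 members, 35 reached the level to be tested, and the other was Abca1. In Tbx21-KO, 18 of the 35 were lower, 8 were higher and 9 were not called. Among all genes tested, 23.0% were lower and 30.1% were higher, so that 53.1% were called in one direction or the other. The changes were small: none of the 26 called members moved by 1 or more on the log2 scale, 12 moved by at least 0.4, and the median size was 0.38. Replicates lay close together: the median difference between the 2 libraries of a group was 0.05 in Tbx21-KO and 0.04 in WT on the same scale. On this scale the fatty acid arm moved one way and the sterol arm both ways, whereas both arms moved both ways when the libraries were rescaled to the T cell receptor list, as described further on.

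**Figure D1:**
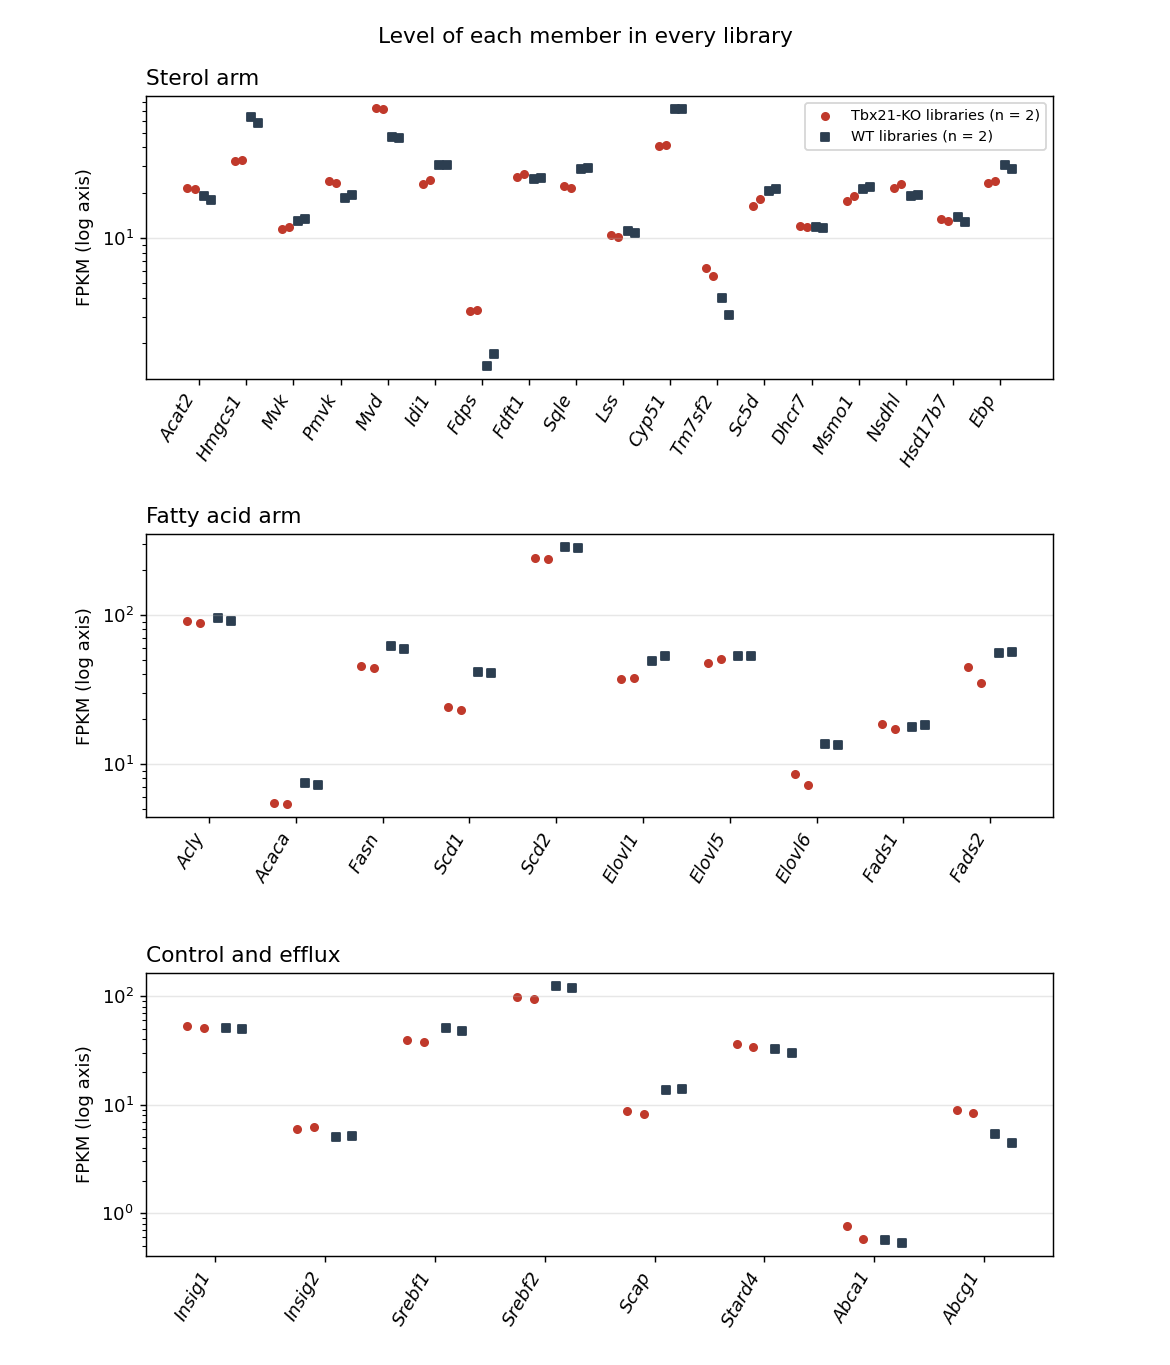
FPKM (log axis) of each of the 36 members in every library, Tbx21-KO libraries as circles and WT libraries as squares, in 3 panels for the sterol arm, the fatty acid arm and the control and efflux genes. Hmgcs1 and Cyp51 lie lower and Mvd lies higher in both Tbx21-KO libraries, and Scd2 is the most abundant member, at 239 to 286 FPKM.

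Among the 18 enzymes of the sterol arm, 8 were lower in Tbx21-KO (44.4%), 6 were higher (33.3%) and 4 were not called, with a median log2 fold change of -0.04, beside 0.04 over all genes tested. The lower genes included both of the most abundant ones in WT, Cyp51 and Hmgcs1, and the higher ones included Mvd, the most abundant gene of the arm in Tbx21-KO. In 17 of the 18 the libraries of the groups did not overlap, 9 lying lower and 8 higher in Tbx21-KO, as was the case for 35.3% and 43.7% of all genes tested, or 79.0% in either direction. The summed level of the arm was 397 and 402 FPKM in Tbx21-KO libraries, against 450 and 441 FPKM in WT libraries, or 89.7% of WT.

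Promoter windows of 4 members are shown so that their changes can be read beside the elements through which sterol genes are commonly switched on: Hmgcs1 and Cyp51 had the largest falls of the arm, Mvd had a large rise, and Fasn is the central enzyme of the fatty acid arm. The windows are RefSeq's, on GRCm38.p6, run from 250 bases before to 50 bases after the annotated start, and are written 5′ to 3′ on the gene's strand. Hmgcs1 lies at chr13:119690101-119690400 on the plus strand, Cyp51 at chr5:4104648-4104947, Mvd at chr8:122443373-122443672 and Fasn at chr11:120824498-120824797, these 3 on the minus strand. Capitals mark the classical sterol element TCACNCCAC, which SREBP binds, and the CCAAT box, the site of the factor NF-Y, each searched on both strands.
Hmgcs1: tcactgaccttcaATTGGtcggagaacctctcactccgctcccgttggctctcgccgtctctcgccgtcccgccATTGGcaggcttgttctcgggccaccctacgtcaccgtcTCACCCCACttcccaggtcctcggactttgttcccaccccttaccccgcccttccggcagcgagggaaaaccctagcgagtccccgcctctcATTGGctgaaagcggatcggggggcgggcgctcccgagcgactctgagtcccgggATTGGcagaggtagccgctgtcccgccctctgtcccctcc
Cyp51: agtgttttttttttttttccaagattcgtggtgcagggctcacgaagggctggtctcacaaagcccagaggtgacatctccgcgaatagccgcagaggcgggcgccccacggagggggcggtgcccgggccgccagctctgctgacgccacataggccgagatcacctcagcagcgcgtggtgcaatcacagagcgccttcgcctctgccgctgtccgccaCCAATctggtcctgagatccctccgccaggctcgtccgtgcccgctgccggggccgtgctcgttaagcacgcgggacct
Mvd: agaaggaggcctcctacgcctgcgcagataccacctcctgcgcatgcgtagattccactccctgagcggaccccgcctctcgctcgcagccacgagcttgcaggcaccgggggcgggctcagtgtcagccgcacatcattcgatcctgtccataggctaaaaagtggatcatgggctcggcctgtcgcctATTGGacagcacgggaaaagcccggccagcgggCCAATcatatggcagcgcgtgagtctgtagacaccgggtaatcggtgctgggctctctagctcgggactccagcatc
Fasn: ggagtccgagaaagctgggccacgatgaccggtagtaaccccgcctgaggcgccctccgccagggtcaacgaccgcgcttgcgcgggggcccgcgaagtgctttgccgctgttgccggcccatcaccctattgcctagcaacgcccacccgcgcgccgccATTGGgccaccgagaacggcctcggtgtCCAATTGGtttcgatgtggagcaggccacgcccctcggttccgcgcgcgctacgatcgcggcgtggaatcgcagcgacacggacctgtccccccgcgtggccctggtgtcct
The Hmgcs1 window held the sterol element once, 137 bases before the start, and 4 CCAAT boxes, all read on the opposite strand and so printed as ATTGG. The Cyp51 window held 1 CCAAT box, the Mvd window 2 and the Fasn window 3, of which a pair overlaps as a palindrome. RefSeq windows were found for 28 of the 36 members, and for 15 of the 18 genes of the sterol arm. A CCAAT box was present in 14 of 18 windows of the sterol arm (77.8%), in 4 of 8 windows of the fatty acid arm and in 37.4% of all 32851 windows in the table. Genes of the sterol arm had it whether they were lower (7 of 7 windows) or higher (4 of 6 windows). The sterol element was found in the window of Hmgcs1, in that of no other member with a window, and in 1.24% of all windows. Only these exact letters were searched, so a site that departs from them, or lies outside the window, would be missed. Members without a window could not be searched. A match of letters is a description of the window and not a measured binding site.

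The first steps of the pathway changed in both directions. Acat2, the cytosolic thiolase that joins acetyl-CoA units, was called higher by a small margin, at 21.3 ± 0.182 FPKM in Tbx21-KO and 18.4 ± 0.812 FPKM in WT (SD, n = 2 each, log2 fold change 0.20, limma adjusted p = 0.0216). A stretch of 1477 bases is 97.7% identical to Acat3, which was at 0.212 to 0.512 FPKM. Hmgcs1 (ENSMUSG00000093930, GRCm38 chromosome 13, 119690379 to 119708260), the synthase of HMG-CoA, was at 32.6 and 33.0 FPKM in Tbx21-KO libraries, against 63.4 and 57.8 FPKM in WT libraries. The groups did not overlap, and Hmgcs1 fell to 54.1% of WT, the largest fall of the arm (log2 fold change -0.86, SE 0.06, limma adjusted p = 0.000353). Mvk, the mevalonate kinase, averaged 11.7 ± 0.283 FPKM in Tbx21-KO and 13.1 ± 0.252 FPKM in WT (SD, n = 2 each). Its log2 fold change of -0.15 had a limma adjusted p of 0.046 and lost its call in 9 of 15 other fits, the 4 that left out any 1 library among them.

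The next kinase and the decarboxylase were higher. Pmvk, which adds the second phosphate to mevalonate, was at 24.0 and 23.3 FPKM in Tbx21-KO libraries, against 18.4 and 19.2 FPKM in WT libraries (log2 fold change 0.32, SE 0.05, limma adjusted p = 0.00407). Mvd (on GRCm38 at chromosome 8, 122433601 to 122443422), the decarboxylase that makes isopentenyl diphosphate, was at 72.6 and 71.6 FPKM in Tbx21-KO libraries, against 46.6 and 46.0 FPKM in WT libraries. Both Tbx21-KO libraries lay above both WT libraries, and Mvd rose 1.56-fold (log2 fold change 0.63, SE 0.04, limma adjusted p = 0.00026). Idi1, the isomerase that acts on that product, fell: it was at 22.7 and 24.2 FPKM in Tbx21-KO libraries, against 30.6 and 30.5 FPKM in WT libraries (log2 fold change -0.37, SE 0.05, limma adjusted p = 0.0029).

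Fdps, the synthase of farnesyl diphosphate, was the least abundant gene of the arm, at 3.27 and 3.34 FPKM in Tbx21-KO libraries, against 1.42 and 1.68 FPKM in WT libraries. The groups did not overlap, and Fdps had the largest rise of the arm (log2 fold change 0.76, SE 0.09, limma adjusted p = 0.00229). This value is uncertain, because reads of Fdps can be shared with near-identical copies. The annotated gene Gm43738 overlaps 1124 exon bases of Fdps on the same strand and was at 0 in every library. The processed pseudogene Gm3571 (GRCm38 chromosome 10, 93778660 to 93779719), chosen after its values were seen, is 98.9% identical to the Fdps transcript over 1062 bases. The pseudogene was listed at 27.1 and 29.9 FPKM in Tbx21-KO libraries, against 20.3 and 18.4 FPKM in WT libraries, above Fdps in each library, and was also higher in Tbx21-KO (log2 fold change 0.54, SE 0.07, limma adjusted p = 0.00374). The sources used here do not say how reads that match both were assigned.

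The squalene steps were lower or not called. Fdft1, squalene synthase, was not called, at 26.0 ± 0.765 FPKM in Tbx21-KO and 24.7 ± 0.194 FPKM in WT (SD, n = 2 each), with a 95% confidence interval of -0.04 to 0.18 for the log2 fold change. Fdft1 shares 774 exon bases with Ctsb on the opposite strand, and Ctsb was at 50.2 and 52.9 FPKM in Tbx21-KO libraries, against 32.1 and 32.7 FPKM in WT libraries. Sqle, the epoxidase of squalene, was at 22.0 and 21.5 FPKM in Tbx21-KO libraries, against 28.8 and 29.0 FPKM in WT libraries. All of its Tbx21-KO values lay below WT, and it fell to 75.4% of WT (log2 fold change -0.39, SE 0.04, limma adjusted p = 0.00136). Lss, which closes the sterol rings, was not called, with an interval of -0.20 to 0.05.

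Of the enzymes that turn lanosterol into cholesterol, Cyp51 (ENSMUSG00000001467, GRCm38 chromosome 5, 4081145 to 4104746), the lanosterol demethylase, changed most. It was at 40.6 and 41.5 FPKM in Tbx21-KO libraries, against 72.1 and 71.6 FPKM in WT libraries, and so fell to 57.1% of WT (log2 fold change -0.79, SE 0.04, limma adjusted p = 0.000132). Tm7sf2, the sterol reductase that acts after it, was at 6.31 and 5.60 FPKM in Tbx21-KO libraries, against 4.00 and 3.06 FPKM in WT libraries. Its rise (log2 fold change 0.62, SE 0.12, limma adjusted p = 0.0118) lost its call without Tbx21-KO replicate 1, and 532 of its exon bases are shared with Vps51 on the same strand. Vps51 was at 7.44 and 7.41 FPKM in Tbx21-KO libraries, against 5.39 and 5.73 FPKM in WT libraries, so it lay higher in the same libraries. Lbr, an enzyme of the nuclear envelope with the same activity and no member of the set, was more abundant, at 62.3 and 62.8 FPKM in Tbx21-KO libraries, against 71.8 and 61.5 FPKM in WT libraries, and was not called.

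The later steps moved less. Msmo1, which oxidizes the methyl groups of the ring, Ebp, a sterol isomerase, and Sc5d, a sterol desaturase, fell by 0.23, 0.32 and 0.27 on the log2 scale. Nsdhl, the dehydrogenase that works beside Msmo1, rose by 0.20. The limma adjusted p of these 4 ran from 0.0059 for Ebp to 0.0234 for Nsdhl. Hsd17b7, the reductase of the same step, and Dhcr7, which makes cholesterol in the last step of 1 branch, were not called, with intervals of -0.15 to 0.14 and -0.09 to 0.15. The calls of several of these small changes rest on single libraries: that of Msmo1 was lost without WT replicate 2 and without Tbx21-KO replicate 1, that of Sc5d without Tbx21-KO replicate 1, that of Nsdhl without WT replicate 1 and without Tbx21-KO replicate 2, and that of Acat2 without WT replicate 2 and without either Tbx21-KO library. The calls of Acat2 and Nsdhl were also lost with median-of-ratios scaling (limma adjusted p = 0.156 and 0.187). Msmo1 and Sc5d changed direction when the libraries were rescaled to the T cell receptor list, as described further on. Among the members with large changes, Hmgcs1 shares 557 exon bases with the antisense gene Gm48342 and Cyp51 shares 166 with Akap9, both on the opposite strand. Gm48342 was at 0.0657 to 0.587 FPKM and Akap9 at 4.46 to 5.06 FPKM over the 4 libraries, and without knowledge of strand such reads cannot be told apart.

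**Figure D2:**
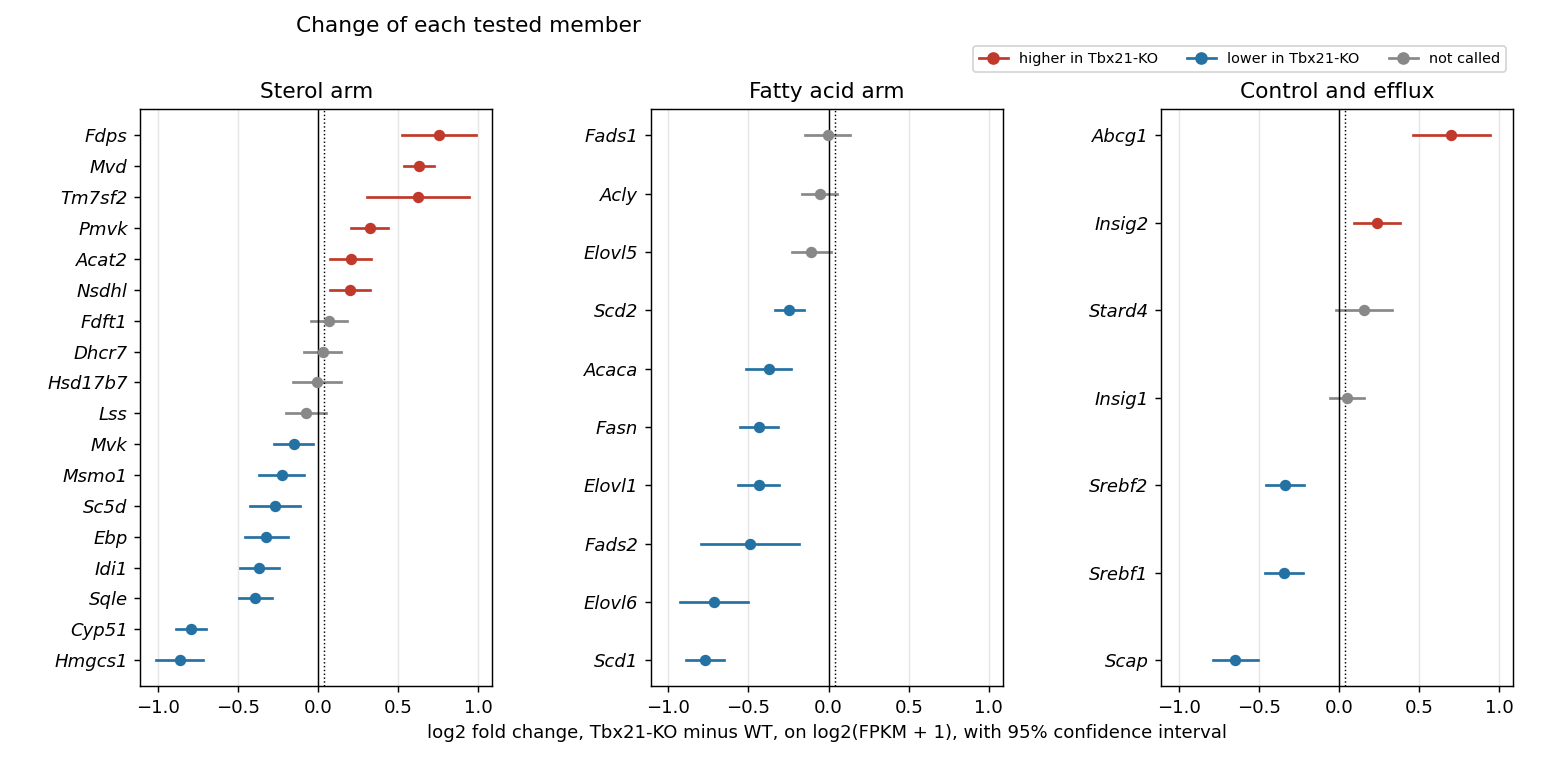
Log2 fold change (Tbx21-KO minus WT, on log2(FPKM + 1)) of the 35 tested members with its 95% confidence interval, in 3 panels. The solid line marks 0 and the dotted line the median of all genes tested, 0.04. On this scale no member of the fatty acid arm is called higher, against 4 with the T cell list scaling, while the sterol arm runs from -0.86 for Hmgcs1 to 0.76 for Fdps.

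In the fatty acid arm, 7 of 10 enzymes were lower in Tbx21-KO, none was higher in limma's test and 3 were not called, with a median log2 fold change of -0.40, whereas 2 were lower and 4 higher with the T cell list scaling. Over all genes tested, 23.0% were lower and 30.1% higher, and with the T cell list scaling 4.68% were lower and 72.7% higher. For 9 of the 10 every Tbx21-KO value was below every WT value, and for the other, Fads1, they overlapped. Of all genes tested, 35.3% lay lower without overlap, and 79.0% did not overlap in either direction. The summed level was 562 and 548 FPKM in Tbx21-KO libraries, against 681 and 674 FPKM in WT libraries, or 81.9% of WT.

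The route begins with 3 enzymes that supply, activate and join its building blocks. Acly, the citrate lyase that supplies cytosolic acetyl-CoA to both arms, was at 90.5 and 88.4 FPKM in Tbx21-KO libraries, against 95.3 and 90.7 FPKM in WT libraries, and was not called (interval -0.17 to 0.06). Acaca, the carboxylase that commits acetyl-CoA to fatty acids, was at 5.46 and 5.35 FPKM in Tbx21-KO libraries, against 7.41 and 7.19 FPKM in WT libraries. Acaca fell to 74.0% of WT (log2 fold change -0.37, SE 0.05, limma adjusted p = 0.00412). The pseudogene Gm5182, which is 99.2% identical to Acaca over 6118 bases, was lower as well, by 0.35 on the log2 scale, and reads of the pair could be counted for either. Fasn (ENSMUSG00000025153, GRCm38 chromosome 11, 120805846 to 120824547), fatty acid synthase, was at 45.1 and 43.8 FPKM in Tbx21-KO libraries, against 62.1 and 58.7 FPKM in WT libraries, a fall to 73.5% (log2 fold change -0.44, SE 0.05, limma adjusted p = 0.0016).

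Both stearoyl-CoA desaturases were lower. Scd2, which like Scd1 makes oleate and palmitoleate, was the most abundant of all 36 members, at 240.5 and 239 FPKM in Tbx21-KO libraries, against 286 and 282.5 FPKM in WT libraries, and fell to 84.4% (log2 fold change -0.24, SE 0.04, limma adjusted p = 0.00452). Its neighbour on chromosome 19, Scd1 (positions 44394455 to 44407879 on GRCm38), stood at 24.2 and 22.9 FPKM in Tbx21-KO libraries, against 41.4 and 40.5 FPKM in WT libraries. All Tbx21-KO values of Scd1 lay below WT, and it fell to 57.6% (log2 fold change -0.77, SE 0.04, limma adjusted p = 0.000277), the largest fall of the arm. A stretch of 623 bases is 95.5% identical between a Scd1 transcript and Scd2, so part of their reads could be exchanged.

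Of the fatty acid desaturases for polyunsaturated chains, Fads2 was at 44.7 and 35.0 FPKM in Tbx21-KO libraries, against 55.4 and 56.7 FPKM in WT libraries. The 2 Tbx21-KO libraries differed here by 0.34 on the log2 scale, more than for any other member. The log2 fold change of -0.49 had an SE of 0.12 (limma adjusted p = 0.0216). The call of Fads2 was lost without a filter on low values. It was also lost with the T cell list scaling, where its log2 fold change was -0.03 (limma adjusted p = 0.805). Fads1, which lies near it on chromosome 19, was not called, at 17.9 ± 0.939 FPKM in Tbx21-KO and 18.0 ± 0.475 FPKM in WT (SD, n = 2 each), with an interval of -0.15 to 0.14. Whether Fads2 and Fads1 differ in their change was not tested.

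Among the elongases, Elovl6, which lengthens palmitate to stearate, was at 8.49 and 7.21 FPKM in Tbx21-KO libraries, against 13.6 and 13.4 FPKM in WT libraries, and fell to 58.2% (log2 fold change -0.71, SE 0.08, limma adjusted p = 0.00213). Elovl1, an elongase of saturated very long chains, was at 37.1 and 37.9 FPKM in Tbx21-KO libraries, against 49.3 and 52.8 FPKM in WT libraries, and fell to 73.4% (log2 fold change -0.44, SE 0.05, limma adjusted p = 0.00194). Elovl5, an elongase of polyunsaturated chains, was not called, at 47.5 and 50.8 FPKM in Tbx21-KO libraries, against 53.0 FPKM in both WT libraries, with an interval of -0.23 to 0.01.

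Of the 7 tested genes of control, transfer and efflux, 3 were lower (42.9%), 2 were higher (28.6%) and 2 were not called, beside 23.0% lower and 30.1% higher over all genes tested, with a median log2 fold change of 0.05. The lower ones were both SREBP genes and Scap, and the higher ones were Insig2 and Abcg1. Srebf1 (GRCm38 chromosome 11, 60199089 to 60222581), whose SREBP favours fatty acid genes, was at 39.4 and 37.9 FPKM in Tbx21-KO libraries, against 50.6 and 48.2 FPKM in WT libraries (log2 fold change -0.34, SE 0.05, limma adjusted p = 0.00331). Srebf2 (GRCm38 chromosome 15, 82147181 to 82205379), whose SREBP favours sterol genes, was at 98.7 and 94.7 FPKM in Tbx21-KO libraries, against 125 and 119.6 FPKM in WT libraries (log2 fold change -0.34, SE 0.04, limma adjusted p = 0.00338). Srebf1 fell to 78.3% of WT and Srebf2 to 78.9%, but with the T cell list scaling both values were above 0 and neither was called. The table has 1 value per gene and does not separate the isoforms of Srebf1.

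Scap (GRCm38 chromosome 9, 110333288 to 110384950), the escort of the SREBP precursors, was at 8.85 and 8.25 FPKM in Tbx21-KO libraries, against 13.8 and 14.1 FPKM in WT libraries, and fell to 61.3% (log2 fold change -0.65, SE 0.05, limma adjusted p = 0.000773). Insig1, which holds SCAP back and is itself an SREBP target, was at 53.6 and 51.2 FPKM in Tbx21-KO libraries, against 50.7 and 50.4 FPKM in WT libraries, and was not called (log2 fold change 0.05, interval -0.06 to 0.16). Insig2, its less abundant relative, was at 6.03 and 6.24 FPKM in Tbx21-KO libraries, against 5.01 and 5.12 FPKM in WT libraries. Its rise (log2 fold change 0.24, SE 0.06, limma adjusted p = 0.021) lost its call in 6 of 15 other fits, including each of the 4 that left out 1 library.

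Stard4, a cytosolic carrier of cholesterol, was at 36.4 and 33.9 FPKM in Tbx21-KO libraries, against 33.0 and 29.8 FPKM in WT libraries, and was not called (interval -0.02 to 0.33). Without WT replicate 1 its log2 fold change was 0.23 and passed the test. Of the exporters that LXR drives, Abcg1 (on GRCm38 at chromosome 17, 31057675 to 31117988) stood at 8.96 and 8.31 FPKM in Tbx21-KO libraries, against 5.39 and 4.48 FPKM in WT libraries. It rose 1.75-fold (log2 fold change 0.70, SE 0.09, limma adjusted p = 0.00335). Abca1 was below the level for a test, at 0.769 and 0.578 FPKM in Tbx21-KO libraries, against 0.564 and 0.532 FPKM in WT libraries. Both exporters are also expressed by macrophages, whose markers were higher in the same libraries, and the part of such cells in these values was not tested.

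The arms were set against each other by their medians. The median log2 fold change was -0.40 in the fatty acid arm and -0.04 in the sterol arm, a difference of -0.36. The difference ran from -0.39 to -0.29 over the fits made. Several of these could hardly move it, since rescaling whole libraries shifts both arms nearly alike. Fits that changed only the variance model or kept every member left all fold changes as they were. The range therefore does not measure the uncertainty from 2 libraries a group. The difference has no p-value of its own, and the values of the arms overlap, since Hmgcs1 and Cyp51 fell as far as Scd1 and Elovl6. At the upper end, 6 of 18 sterol enzymes were higher (33.3%), a share near the 30.1% of all genes tested. Median-of-ratios scaling, which shifted the median of all genes by -0.10, left 4 of them higher. The highest value of the fatty acid arm was that of Fads1, -0.01.

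The direction of the smaller changes depended on how the libraries were scaled. When the libraries were rescaled so that the T cell receptor list had the same median in each, the median of all genes moved by 0.40. Of all genes, 72.7% were then called higher and 4.68% lower. Only the median of the list was made equal. Of its 18 tested genes, 7 were called higher and 7 lower after rescaling, with Cd28 at -0.97 and Cd5 at 0.92. In this T cell list scaling 13 sterol enzymes were higher and 2 lower, and 4 fatty acid enzymes were higher and 2 lower, with arm medians of 0.39 and 0.03. The falls of Hmgcs1, Cyp51, Scd1, Elovl6 and Scap kept their call in every fit, as did the rises of Pmvk, Mvd, Abcg1 and, where its low level let it be tested, Fdps. For 9 further falls, those of Idi1, Sqle, Ebp, Acaca, Fasn, Scd2, Elovl1, Srebf1 and Srebf2, the call as lower was lost in this scaling and in none of the other 14 fits. Scd2 was called higher there, with a log2 fold change of 0.22 (limma adjusted p = 0.00574), and the other 8 were not called. Mvk, Sc5d and Msmo1, whose calls as lower were lost in further fits too, were also called higher in the T cell list scaling. Their log2 fold changes were 0.28, 0.17 and 0.22 (limma adjusted p = 0.00568, 0.0457 and 0.0163). Quantile normalization moved the median of all genes by -0.13, with 22.3% of all genes higher and 34.0% lower, and gave 6 higher and 9 lower sterol enzymes and 7 lower fatty acid enzymes.

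**Figure D3:**
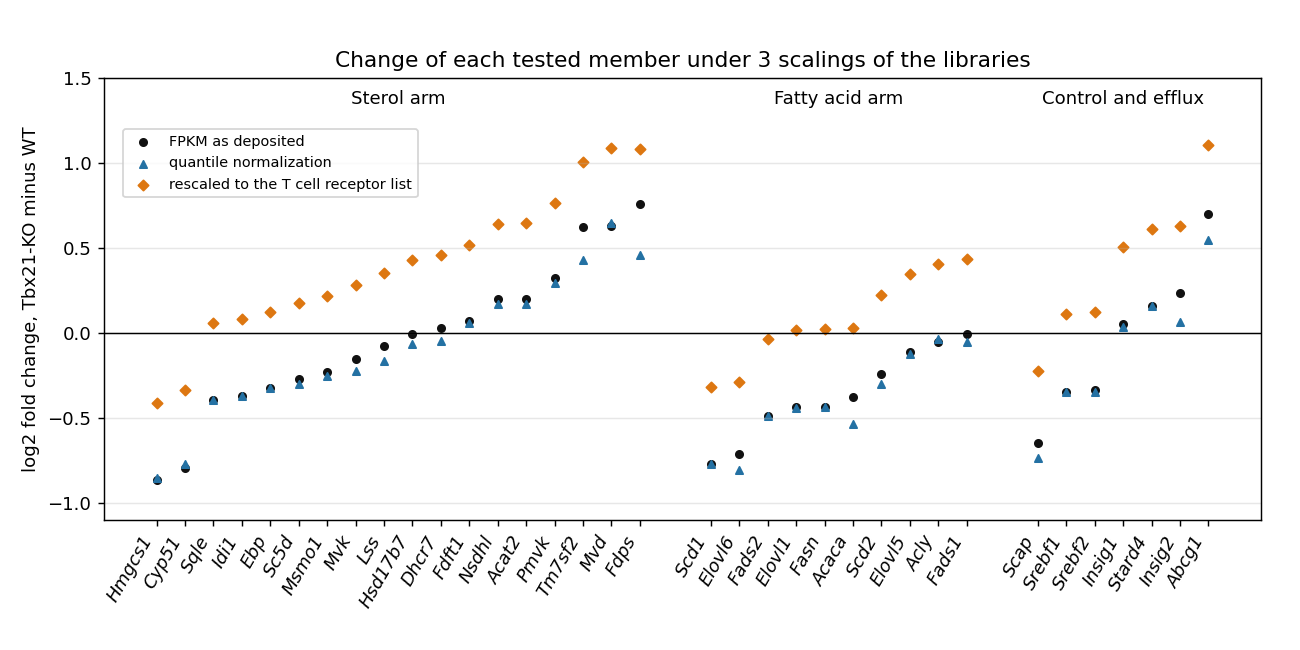
Log2 fold change (Tbx21-KO minus WT) of each of the 35 tested members. Circles show the FPKM as deposited and triangles quantile normalization. Diamonds show rescaling to an equal median of the T cell receptor list. The last scaling lifts every member, and Hmgcs1, Cyp51, Scd1, Elovl6 and Scap are the members still called lower in it.

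Other genes of the pathways were taken from lists by function. Of 6 tested further genes of sterol synthesis, 1 was higher and 3 were lower, beside 30.1% and 23.0% of all genes tested. Their median log2 fold change was -0.12. With the T cell list scaling 5 were higher and 0 lower, and the 1 called higher without it was Acat1. Acat1, the mitochondrial thiolase, was at 30.2 and 31.8 FPKM in Tbx21-KO libraries, against 22.3 and 21.7 FPKM in WT libraries, and rose by 0.48. It kept its call in every fit, with a log2 fold change of 0.93 under the T cell list scaling.

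Of 9 tested further genes of fatty acid synthesis, 4 were higher and 1 lower, beside 30.1% and 23.0% of all genes tested. With the T cell list scaling 8 were higher and 0 lower, beside 72.7% and 4.68% of all genes. After quantile normalization 4 were higher and 3 lower, beside 22.3% and 34.0% of all genes. Me1, the malic enzyme that supplies NADPH for fatty acid synthesis, was at 19.97 and 20.03 FPKM in Tbx21-KO libraries, against 3.27 and 3.16 FPKM in WT libraries. It rose 6.23-fold (log2 fold change 2.32, SE 0.05, limma adjusted p = 1.74e-05), more than any other gene of the 7 lists on these pathways. Elovl7, another elongase, was at 1.48 and 1.67 FPKM in Tbx21-KO libraries, against 0.489 and 0.568 FPKM in WT libraries, and rose by 0.75 on the log2 scale. Elovl7 reached the level for a test only through its Tbx21-KO values, so it could enter the count only as a rise. Hsd17b12, a reductase of the elongation cycle, was at 40.7 and 42.4 FPKM in Tbx21-KO libraries, against 58.1 and 59.2 FPKM in WT libraries, and fell by 0.49, though without a call under the T cell list scaling.

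Genes of uptake and storage held the largest fall. Soat2, which esterifies cholesterol, was at 7.26 and 6.81 FPKM in Tbx21-KO libraries, against 21.7 and 22.2 FPKM in WT libraries. It fell to 32.1% of WT (log2 fold change -1.51, SE 0.05, limma adjusted p = 5.77e-05), and Soat1, the other esterifying enzyme, was not called. Scarb1, a receptor for lipoproteins, was at 10.6 and 11.0 FPKM in Tbx21-KO libraries, against 4.08 and 4.01 FPKM in WT libraries, and rose by 1.23 on the log2 scale. Npc2, which hands cholesterol out of lysosomes, was at 64.8 and 69.9 FPKM in Tbx21-KO libraries, against 35.9 and 37.2 FPKM in WT libraries, and rose by 0.86.

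Of 7 tested genes of SREBP processing and LXR signalling, 3 were higher and none lower in limma's test, beside 30.1% and 23.0% of all genes tested. All 7 were higher with the T cell list scaling, in which 72.7% of all genes were. After quantile normalization 3 were higher and 2 lower, beside 22.3% and 34.0% of all genes. Erlin1, a protein of the endoplasmic reticulum that takes part in protein degradation there, was at 7.64 and 7.08 FPKM in Tbx21-KO libraries, against 2.94 and 3.21 FPKM in WT libraries, and rose by 1.04 on the log2 scale. Rxra, a partner of LXR, was at 1.97 and 1.89 FPKM in Tbx21-KO libraries, against 0.726 and 0.668 FPKM in WT libraries, and rose by 0.79. Rxra reached the level for a test only through its Tbx21-KO values, so it could enter the count only as a rise. The proteases that cleave SREBP, Mbtps1 and Mbtps2, were not called: the log2 fold change was -0.14 for Mbtps1 and -0.02 for Mbtps2. Their calls depended on the scaling. After quantile normalization both were called lower, at -0.24 and -0.29 (limma adjusted p = 0.0145 and 0.0324). With median-of-ratios scaling Mbtps1 was called lower (limma adjusted p = 0.0119) and Mbtps2 was not called. The 3 higher genes rose in the libraries whose granulocyte markers summed to 10551 and 10860 FPKM, and their cell of origin was not tested.

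**Figure D4:**
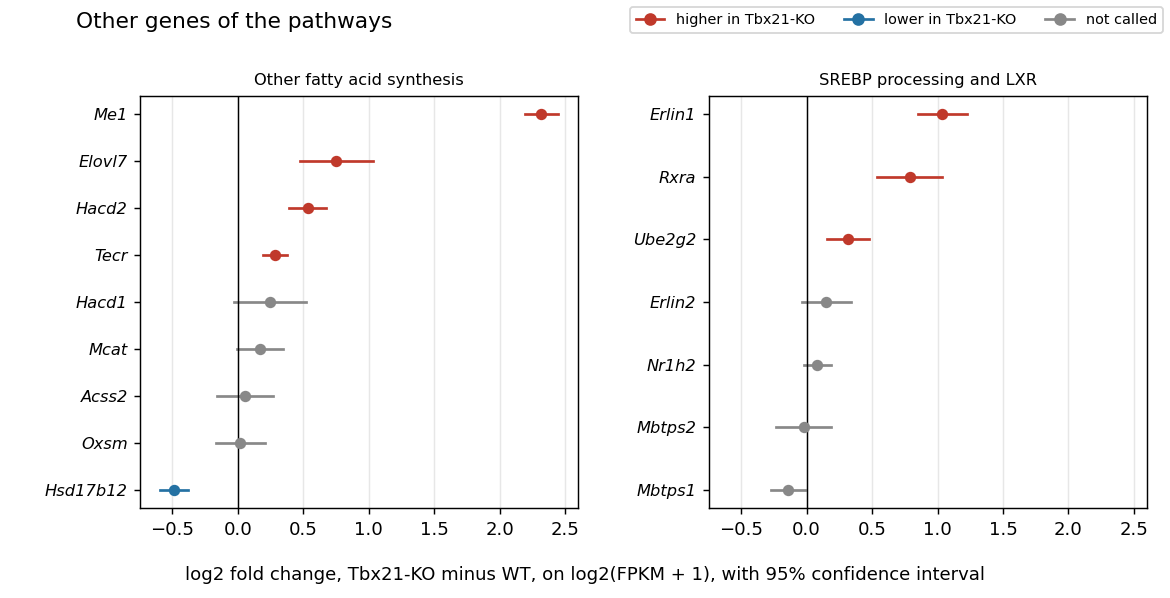
Log2 fold change (Tbx21-KO minus WT, on log2(FPKM + 1)) with its 95% confidence interval for the tested genes of 2 further lists, other fatty acid synthesis on the left and SREBP processing and LXR on the right. Me1 lies highest, at 2.32, and Hsd17b12 lowest, at -0.49.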

How the data were processed

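RNA was sequenced from 2 Tbx21-KO and 2 WT libraries made with an mRNA library kit, per the labels' protocols. The authors deposited 1 table of FPKM per gene, and per the submitters' processing notes the builds were GRCm38 and mm10. The sources used here name no aligner, counter or annotation and do not say whether strand was used. Of 24769 rows, 1 was cut off and left out. Of the remaining IDs, 24720 were named from GENCODE M21.

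The FPKM as deposited were tested as log2(FPKM + 1) with limma 3.58.1 (R 4.3.3, variance trend) over genes with a mean of at least 1 FPKM in the 4 libraries, with Benjamini-Hochberg adjustment over all 11013. With the gene lengths of GENCODE M21, the values were whole multiples of 1 read: 96.8 to 97.3% of values under 20 reads were whole within 0.1, which gave the depth and the reads of 1 alternative fit. Replicates differed by more than counting error (median chi-square per gene 1.31 in Tbx21-KO and 1.44 in WT, against 0.455). Alternatives were other pseudocounts, filters and scalings, no variance trend, a replicate block, limma's voom on the recovered reads, and leaving out each library. The fit was tested on simulated data.

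All members were described by role. Full statistics were given for the control genes and, in each arm, for up to 4 of the largest called rises and 4 of the largest called falls. In other lists up to 2 of the largest called rises or falls were described, not all of them. Of these, Me1 and Soat2 were given with SE and adjusted p, and the rest with levels and log2 fold change. The values per library of Acaca, Fasn, Scd2, Acly, Elovl5 and Lbr were added after they were seen. The members and lists were chosen with earlier results of these data known. Copies were stretches of other GENCODE M21 transcripts of at least 150 bases with 95% identity to a member (blastn 2.17.0). Hacd3, Scd3, Mylip and 7 marker genes were not analysed here, and some results of further pathway genes are not reported here.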

Additional observations from a re-analysis of the deposited data

How the results depend on the processing

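With 2 libraries a group, precision is limited by their number. Every alternative gave a value, except that Fdps and Tm7sf2 were not tested with a mean of at least 5 FPKM. The fall of Tbx21 ran from -2.40 to -1.25 on the log2 scale over the fits. Over 15 other fits of the members, 457 values kept direction and side of the threshold, 30 lost their call, 11 gained one and 25 changed sign. Of these, 8 were uncalled values near 0 that stayed uncalled. With median-of-ratios scaling Fdft1 was at -0.040, Dhcr7 at -0.075 and Insig1 at -0.060, and after quantile normalization Dhcr7 was at -0.049. Hsd17b7 was at 0.049 without WT replicate 1 and at 0.018 without Tbx21-KO replicate 2, and Fads1 was at 0.020 without WT replicate 2 and at 0.045 without Tbx21-KO replicate 2, with ranges of -0.06 to 0.049 for Hsd17b7 and -0.057 to 0.045 for Fads1 over the 4 fits that left out 1 library. The other 17 came with the T cell list scaling, where the log2 fold changes were 0.28 for Mvk, 0.082 for Idi1, 0.057 for Sqle, 0.35 for Lss, 0.17 for Sc5d, 0.22 for Msmo1, 0.43 for Hsd17b7, 0.13 for Ebp, 0.41 for Acly, 0.028 for Acaca, 0.023 for Fasn, 0.22 for Scd2, 0.020 for Elovl1, 0.35 for Elovl5, 0.44 for Fads1, 0.11 for Srebf1 and 0.12 for Srebf2. That scaling raises all genes by construction (8001 higher and 515 lower), and gave 13 higher and 2 lower sterol genes (median 0.39), 4 higher and 2 lower fatty acid genes (median 0.025), and 4 higher and 1 lower control genes.

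For the other shifts the cause was not tested, apart from the change of members with the filter at 5 FPKM. The fatty acid median and its difference from the sterol median were -0.43 and -0.39 with a pseudocount of 0.1, -0.32 and -0.29 with a pseudocount of 5, -0.44 and -0.39 with voom, and -0.44 and -0.32 after quantile normalization, which gave a sterol median of -0.12 and 1 higher control gene. Median-of-ratios scaling, which shifted the median of all genes by -0.10, gave medians of -0.51 and -0.14 and 1 higher control gene. Without a filter 5 sterol genes were lower. With a mean of at least 5 FPKM 2018 genes were higher, the sterol median was -0.11 and the difference -0.29. There Fdps (log2 fold change 0.76) and Tm7sf2 (0.62) left the sterol arm, and the values of its other members were unchanged. Leaving out 1 library gave 4 to 5 higher and 5 to 7 lower sterol genes, 1 to 2 higher control genes, a sterol median of -0.076 to -0.011, a fatty acid median of -0.40 to -0.34 and a difference of -0.36 to -0.31. Where this left 1 library in a group, its spread was taken from the other.

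The same-numbered libraries did not deviate together over the genes tested (correlation -0.02). With 2 libraries a group, this cannot show whether they were prepared as pairs. With the replicate block, 6 sterol genes were higher and 7 lower, 0 fatty acid genes were higher and 7 lower, 3 control genes were higher and 3 lower, and 3245 genes were higher and 2482 lower overall.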

Other observations

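Some genes of the lists lay below the level for a test and are given as values. Acacb, the carboxylase of the mitochondrial surface that limits fatty acid oxidation, was at 0.552 and 0.562 FPKM in Tbx21-KO libraries (124 and 130 reads), against 0.112 and 0.0774 FPKM in WT libraries (27 and 18 reads). Ch25h, which makes an oxysterol, was at 0.0952 and 0.247 FPKM in Tbx21-KO libraries (3.1 and 8.2 reads) and at 0 in both WT libraries. Elovl3, an elongase, was at 0.287 and 0.362 FPKM in Tbx21-KO libraries (13.2 and 17.2 reads), against 0.0804 and 0.0277 FPKM in WT libraries (4 and 1.3 reads). For all 3, each Tbx21-KO value was above each WT value, as for 43.7% of the genes that were tested. The share among genes below that level was not counted. In the other untested genes of the further pathway lists, Idi2, Cyp27a1, Elovl4, Fads3, Scd4 and Nr1h3, the groups overlapped.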
